A study of Mus musculus with 6 samples.

Results

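The 8 genes described here encode epidermal serine proteases of the cell surface, the inhibitors that act on them or on the kallikreins, a receptor cleaved by such proteases, and a caspase of the cornifying cell. They are St14, Prss8, Prss27, Spint1, Spint2, Spink5, F2rl1 and Casp14, found by gene symbol among 23951 genes. The group is wider than its name, since Spink5 is a secreted inhibitor, F2rl1 a receptor and Casp14 a cysteine protease inside the cell. The 8 genes were chosen by their role and by their FPKM values (fragments per kilobase of transcript, scaled to the mapped fragments of each library) in the comparison below. Their values in that comparison are therefore given as a description, no p-value is printed for them, and the calls among them are counted only beside those of the whole table. Whole skin was taken from 3 control mice labelled JunB +/+ and 3 mice labelled JunB dep, here called JunBΔep, all on C57Bl/6 and aged 6 to 7 months. The JunBΔep mice carry floxed Junb alleles and a Cre recombinase driven by the K5 promoter, so Junb is deleted in K5-expressing epithelium and kept in the other cells of the skin. The study took the JunBΔep skin from inflamed lesions. Its design text calls the mice littermates, and the replicate numbers 0, 1 and 2 only name the libraries here. Where 3 values of a group follow each other, they stand in that order.

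St14 (matriptase) is a transmembrane serine protease, and Prss8 (prostasin) is a serine protease held to the membrane by a lipid anchor. They act in one cascade that is needed for the epidermal barrier. Spint1 and Spint2 are transmembrane inhibitors with Kunitz domains that block both enzymes, and Spink5 encodes LEKTI, an inhibitor with many Kazal-type domains that holds back the kallikreins which loosen the cornified layer. F2rl1 encodes the receptor PAR2, which is switched on by cleavage and takes part in itch and inflammation, and Casp14 processes filaggrin during cornification.

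Before the values of the 8 genes, some libraries have to be set apart. The total of all FPKM values was 481078 to 630363 in a mouse, and the read depth is unknown. For Junb itself the controls had 59.3, 72.4 and 56.9 FPKM, and the mice labelled JunBΔep had 129.6, 42.8 and 28.05 FPKM. In the library labelled JunBΔep replicate 0, Junb was thus above every control. The other cells of the skin keep Junb, so its level in whole skin cannot check the label. JunBΔep replicate 0 also held 3842 FPKM in sum over 6 markers of mucosal squamous epithelium, against 24.1 to 55.6 FPKM in the other 5. Over 5 neutrophil markers the controls summed to 789, 26.0 and 16.6 FPKM. JunBΔep replicates 1 and 2 summed to 18.9 and 78.7 FPKM, and JunBΔep replicate 0 to 24977 FPKM. Outside that library nearly all of the mucosal sum was Krt78, and the other 5 markers (Krt4, Krt13, Krt76, Sprr3 and Pax9) were at 0 to 0.937 FPKM. Hair follicle markers (Lef1 and 5 hair keratins) summed to 3257 FPKM in control replicate 2 and 5598 FPKM in JunBΔep replicate 1. The sums were 1.34 and 2.98 FPKM in control replicates 0 and 1. In JunBΔep replicates 0 and 2 they were 289 and 86.5 FPKM. Skeletal muscle markers summed to 16195 to 21884 FPKM in the 3 controls against 1546 to 3677 FPKM in the 3 JunBΔep mice. Control replicate 0 held 1831 FPKM over 6 liver markers, against 2.44 to 29.7 FPKM elsewhere. The 8 basal keratinocyte markers, several of which mucosal epithelium also expresses, summed to 3042 to 5323 FPKM in the 3 controls against 2877 to 4193 FPKM in the 3 JunBΔep mice, with none at 0. In JunBΔep replicate 0 that sum was mostly Krt5 (3725 FPKM), while Krt15 was at 80.7 FPKM, against 947 to 2388 FPKM in the other 5. The 8 suprabasal keratinocyte markers were split in that library. Their sum was the highest of the 6 mice, at 19514 FPKM against 8646 to 15279 FPKM, and Krt1 (4466 FPKM), Krtdap (5860 FPKM) and Calm4 (3492 FPKM) were highest there. Lor and Flg2 were lowest there, at 823 and 3.08 FPKM, against 1408 to 3011 FPKM and 68.2 to 139 FPKM. For lesional JunBΔep skin the paper reports increased neutrophils and a loss of loricrin, the protein of Lor. Whether JunBΔep replicate 0 came from another body site or carries a wrong label was not tested. The part that these cell types have in the values below was not tested. In whole skin, fewer cells of a type and less RNA per cell cannot be told apart.

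**Figure D1:**
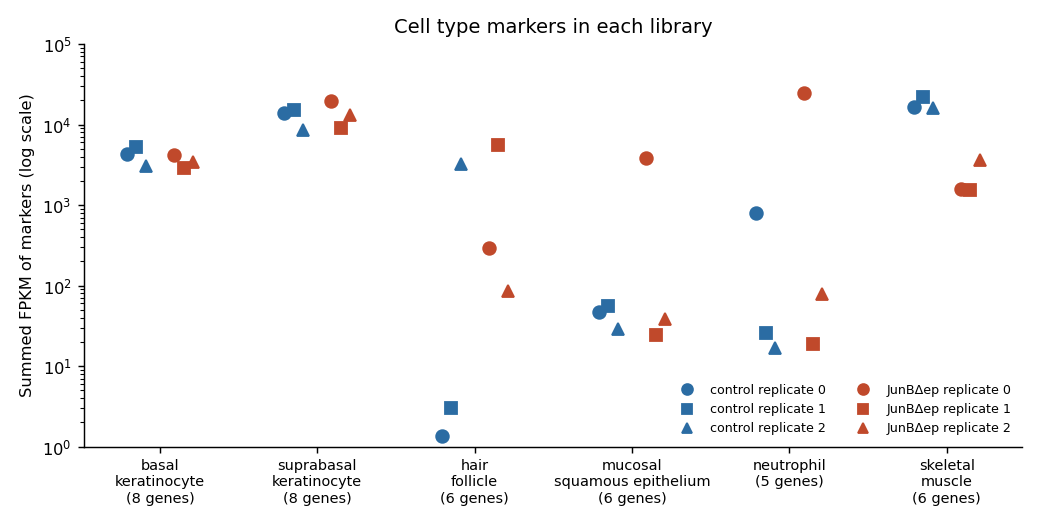
Summed FPKM (log axis) of marker genes of 6 cell types in each of the 6 mice, 1 point per library. Hair follicle markers reached 3257 FPKM in control replicate 2 and 5598 FPKM in JunBΔep replicate 1, and mucosal and neutrophil markers reached 3842 and 24977 FPKM in JunBΔep replicate 0.

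Promoter sequences were found in the RefSeq table of build GRCm38.p6 for 4 of the 8 genes, Spint1, Spint2, Casp14 and Prss27. They were searched on both strands, over 300 bases, for the AP-1 motif TGANTCA, because JunB is an AP-1 factor, for the Grainyhead motif AACNNGTT and for TATAAA. The AP-1 motif occurs in 7.81% of 32851 promoter windows of that length, the Grainyhead motif in 4.20% and TATAAA in 13.6%. Spint1 was the only one of the 4 with a match, 1 AP-1 motif that ends on the start base itself. The windows of Spint1 and of Prss27, the gene with the largest difference between the groups, are shown from 250 bases before the transcript start to the start base, with the AP-1 motif in capitals. Spint1 is at chr2:119237110-119237360 on the plus strand and Prss27 at chr17:24037993-24038243 on the plus strand, both in GRCm38.p6.
Spint1: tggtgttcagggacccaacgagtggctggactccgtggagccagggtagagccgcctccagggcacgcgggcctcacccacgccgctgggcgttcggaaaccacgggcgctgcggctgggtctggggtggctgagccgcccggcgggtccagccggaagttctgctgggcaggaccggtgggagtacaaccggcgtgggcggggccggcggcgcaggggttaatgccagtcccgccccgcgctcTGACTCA
Prss27: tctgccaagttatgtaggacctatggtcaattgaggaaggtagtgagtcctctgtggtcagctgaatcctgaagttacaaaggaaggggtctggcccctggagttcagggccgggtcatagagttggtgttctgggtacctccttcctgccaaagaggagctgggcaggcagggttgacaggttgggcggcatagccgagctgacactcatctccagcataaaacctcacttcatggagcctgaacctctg
A match in these letters is a description of the sequence, and its absence speaks only of this window.

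The 8 genes were expressed in every mouse, from 1.70 FPKM upward, and all 8 passed the filter at a mean of 0.1 FPKM. In controls, Spint2 was the most abundant at 176 ± 36.0 FPKM (SD, n = 3), followed by Spink5 at 71.0 ± 17.9 FPKM (SD, n = 3). Casp14, Spint1, St14, Prss8 and F2rl1 followed with means of 32.3, 31.9, 27.8, 23.4 and 20.9 FPKM and SDs of 1.84 to 13.9 FPKM. Each of these neighbours differed from the next by less than its spread, so their order is not resolved. Prss27 was last at 1.95 ± 0.223 FPKM (SD, n = 3). In JunBΔep replicate 0 the order was another one, with Casp14, Spink5 and Prss27 above Spint2. In JunBΔep replicate 1 Spint2 was still first, and Spink5 came after Spint1, St14 and Casp14.

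All 8 genes had a positive mean log2 fold change in JunBΔep skin, with a median of 0.70 on the log2(FPKM + 0.5) scale, where 53.4% of the 17021 tested genes were positive and the median of all was 0.03. Each of the 8 had its highest value in a JunBΔep mouse, 3 in replicate 0 and 5 in replicate 1. None of the 8 was among the genes called by limma at an adjusted p below 0.05, where 1.38% of the tested genes were called, all of them lower in JunBΔep mice. Without JunBΔep replicate 0, 10 genes were called higher and 125 lower. At an unadjusted p below 0.05, 1 of the 8 was counted, Prss27, where the whole table held 243 genes higher and 1044 lower. The rule used this same contrast, so these counts say nothing further about the genes.

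**Figure D2:**
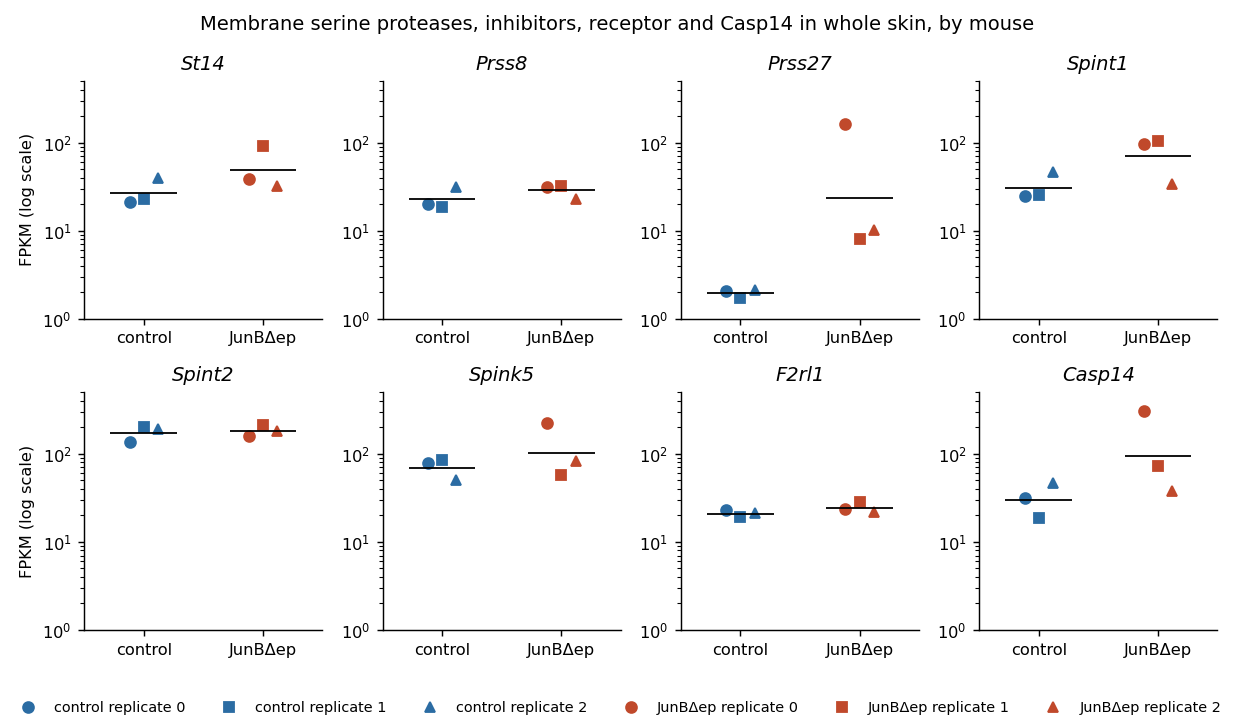
FPKM (log axis) of the 8 genes in 3 control and 3 JunBΔep mice, 1 point per mouse, with a bar at the geometric mean of each group. Prss27 is the panel without overlap, at 1.70 to 2.12 FPKM in the 3 controls against 7.95 to 165 FPKM in the 3 JunBΔep mice.

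Among the proteases, Prss27 separated the groups. Prss27, also called marapsin or pancreasin, is a trypsin-like serine protease found chiefly in stratified squamous epithelium such as that of the esophagus. It lies on chromosome 17 from 24175111 to 24182921 on mm9. It stood at 2.04, 1.70 and 2.12 FPKM in the 3 controls against 165, 7.95 and 10.2 FPKM in the 3 JunBΔep mice. All 3 JunBΔep mice were above all 3 controls, as in 5.62% of the tested genes. The log2 fold change was 3.33 (standard error 1.13, n = 3 against 3). Without JunBΔep replicate 0 it was 1.96. Against the control mean, JunBΔep replicates 1 and 2 were 4.07 and 5.23 times as high, and replicate 0 was 84.3 times as high. Mucosal squamous markers stood out in replicate 0 alone. In JunBΔep replicates 1 and 2 Krt4 was at 0.331 and 0.504 FPKM and Krt13 at 0.0460 and 0 FPKM, no higher than in the highest control. The part of mucosal epithelium in the Prss27 values was not tested.

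St14 lies on chromosome 9 from 30896987 to 30939438 on mm9, where the pseudogene Gm16071 overlaps it on the opposite strand. It stood at 20.9, 22.7 and 39.9 FPKM in the 3 controls against 38.5, 91.8 and 32.3 FPKM in the 3 JunBΔep mice. Only JunBΔep replicate 1 was above every control, and control replicate 2 was above the remaining JunBΔep mice. The log2 fold change was 0.85 (standard error 0.46), and 0.40 without JunBΔep replicate 1. Control replicate 2 and JunBΔep replicate 1, the highest of their groups, are the 2 libraries with high hair follicle markers. Without both, the log2 fold change was 0.68 (standard error 0.25, 2 mice against 2). The remaining JunBΔep mice still had higher hair follicle markers than the remaining controls, so this fit does not remove that difference.

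Prss8 lies on chromosome 7 from 135069239 to 135073627 on mm9, where it overlaps Myst1 on the opposite strand. It had 20.01, 18.4 and 31.7 FPKM in the 3 controls against 31.6, 32.4 and 23.1 FPKM in the 3 JunBΔep mice. The groups overlapped, and the log2 fold change of 0.33 was close to its standard error of 0.26. It was 0.19 without control replicate 1 and 0.57 without control replicate 2. As for St14, control replicate 2 was the highest control. Within a mouse, St14 over Prss8 was 1.04 to 1.40 in 5 mice and 2.83 in JunBΔep replicate 1, so the high St14 of that mouse had no counterpart of the same size in Prss8.

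**Figure D3:**
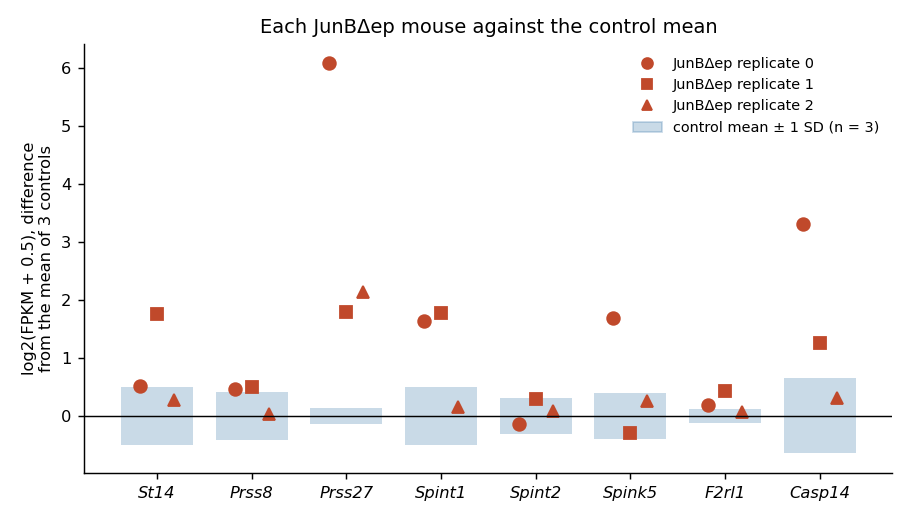
Each JunBΔep mouse against the mean of the 3 controls for the 8 genes, as a difference in log2(FPKM + 0.5). The blue band is the control mean ± 1 SD (n = 3). Prss27 lies above the band in all 3 mice, at 6.08, 1.79 and 2.13, while Spint2 stays within it in all 3.

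Of the Kunitz inhibitors, Spint1 (HAI-1) varied with St14 and Spint2 (HAI-2) varied little. Spint1 lies on chromosome 2 from 119063098 to 119075263 on mm9, the gene whose promoter window with the AP-1 motif is printed above. It stood at 24.5, 25.4 and 45.9 FPKM in the 3 controls against 95.5, 105 and 34.0 FPKM in the 3 JunBΔep mice. JunBΔep replicates 0 and 1 were above every control, and JunBΔep replicate 2 was below control replicate 2. The log2 fold change was 1.18 (standard error 0.50), and 1.18 (standard error 0.55) without the 2 libraries with high hair follicle markers. The hair follicle markers of the mice that remain still differed between the groups, as for St14. Spint2, on chromosome 7 from 30041350 to 30066996, had 135, 203 and 191 FPKM in the 3 controls against 158, 213 and 184 FPKM in the 3 JunBΔep mice. Its log2 fold change was 0.08 (standard error 0.23), and it was -0.10 without control replicate 0. The highest control was 1.87 times the lowest for Spint1 and 1.91 times for St14, a wider span than that of Spint2.

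Set against each other within a mouse, St14 and Spint1 kept 1 ratio in all but 1 library. FPKM values are per length, so the ratio compares transcripts. St14 over Spint1 was 0.852, 0.896 and 0.868 in control replicates 0, 1 and 2. It was 0.871 and 0.949 in JunBΔep replicates 1 and 2, although St14 itself was at 91.8 and 32.3 FPKM in those mice. In JunBΔep replicate 0 the ratio was 0.403, with Spint1 near its level in replicate 1 and St14 within the control range. Prss8 over Spint1 was 0.690 to 0.816 in controls and 0.679 in JunBΔep replicate 2, and 0.330 and 0.308 in JunBΔep replicates 0 and 1. Spint1 over Spint2 was 0.125 to 0.240 in controls and 0.606, 0.495 and 0.185 in JunBΔep replicates 0, 1 and 2. In no mouse was Spint1 more abundant than Spint2.

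**Figure D4:**
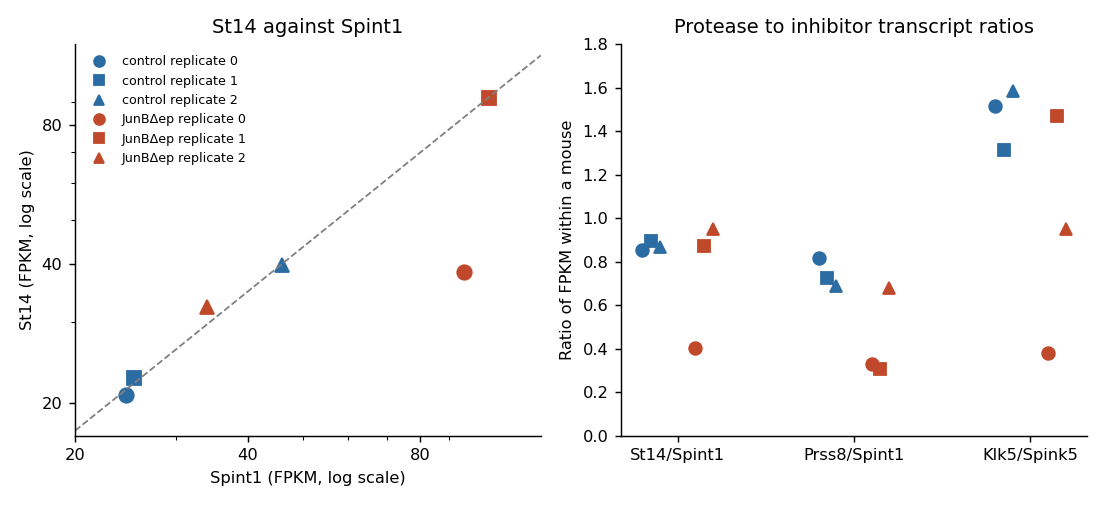
Left, St14 against Spint1 in FPKM on log axes, 1 point per mouse, with a dashed line at the control mean ratio of 0.872. Right, ratios of FPKM within each mouse for St14 over Spint1, Prss8 over Spint1 and Klk5 over Spink5. In 5 mice St14 over Spint1 was 0.852 to 0.949, and JunBΔep replicate 0 stands at 0.403.

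Spink5 stood at 78.0, 84.4 and 50.7 FPKM in the 3 controls against 225, 56.7 and 82.7 FPKM in the 3 JunBΔep mice. Only JunBΔep replicate 0 left the control range. The log2 fold change was 0.55 (standard error 0.53), and -0.02 without that mouse. It was 0.33 without control replicate 2 and 0.97 without JunBΔep replicate 1. Spink5 went against St14 and Spint1 in the mice with hair follicle signal, with its lowest control value in control replicate 2 and its lowest JunBΔep value in replicate 1.

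The kallikreins, secreted proteases that Spink5 restrains, were described by a list of 10 genes. None of the 10 was called by limma in either direction, with 0 at an unadjusted p below 0.05, and their median log2 fold change was 1.47. Without JunBΔep replicate 0 that median was 0.26, and 9 of the 10 genes had their highest value in that library. Klk13 had 0.824, 0.583 and 2.76 FPKM in the 3 controls against 372, 7.30 and 2.20 FPKM in the 3 JunBΔep mice. Its log2 difference was 3.57 (adjusted p = 0.720 in limma), and 1.45 without JunBΔep replicate 0. Klk14, an activator of other kallikreins, had 0.580, 0.436 and 1.27 FPKM in the 3 controls against 161, 2.60 and 1.05 FPKM in the 3 JunBΔep mice. Klk6 had 1.58 to 6.93 FPKM in the 3 controls against 900, 10.7 and 3.67 FPKM in the 3 JunBΔep mice. Klk5, a main target of Spink5 that starts the kallikrein cascade, was the exception in replicate 0. It had 118, 111 and 80.3 FPKM in the 3 controls against 85.7, 83.5 and 78.8 FPKM in the 3 JunBΔep mice. Klk5 over Spink5 was therefore 1.31 to 1.58 in controls and 0.381, 1.47 and 0.952 in JunBΔep replicates 0, 1 and 2. Klk7 over Spink5, for another main target of Spink5, was 2.49 to 4.14 in controls and 2.19, 4.39 and 2.34 in JunBΔep mice. Klk14 over Spink5 was 0.00517 to 0.0249 in controls and 0.718, 0.0459 and 0.0127 in JunBΔep mice. Relative to Spink5, Klk5 and Klk7 were thus below the control range in JunBΔep replicates 0 and 2. Klk14 was above it in JunBΔep replicates 0 and 1, and Klk7 in JunBΔep replicate 1.

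F2rl1, the receptor PAR2, was the steadiest of the 8 genes in controls. It lies on chromosome 13 from 96281687 to 96295195 on mm9. It stood at 22.7, 19.04 and 21.0 FPKM in the 3 controls against 23.8, 28.1 and 21.8 FPKM in the 3 JunBΔep mice. JunBΔep replicates 0 and 1 were above every control by a small margin, and replicate 2 was within the control range. The log2 fold change was 0.22 (standard error 0.16), and 0.12 without JunBΔep replicate 1. The other 3 protease-activated receptors, F2r, F2rl2 and F2rl3, were not called by limma, and 1 of them, F2rl2, had an unadjusted p below 0.05. F2r, the thrombin receptor, had 4.73 to 6.10 FPKM in the 3 controls against 4.24 to 6.12 FPKM in the 3 JunBΔep mice. All 3 had a negative log2 fold change, with a median of -0.32.

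Of 13 substrates and effectors of matriptase and prostasin, 11 had a positive log2 fold change and none was called by limma, with 1 at an unadjusted p below 0.05. The median was 0.24, and 0.03 without JunBΔep replicate 0. Epcam, an adhesion protein that matriptase cleaves, had 49.4, 62.0 and 69.9 FPKM in the 3 controls against 122, 119 and 90.4 FPKM in the 3 JunBΔep mice. All 3 JunBΔep mice were above all controls (a log2 difference of 0.87 with a standard error of 0.21 and, in limma, an adjusted p of 0.192). Scnn1a, the alpha subunit of the epithelial sodium channel that prostasin activates, had 11.4 to 14.2 FPKM in the 3 controls against 31.5, 16.5 and 16.2 FPKM in the 3 JunBΔep mice, again without overlap (adjusted p = 0.709 from limma). Plaur, the urokinase receptor, had 2.48 to 4.67 FPKM in the 3 controls against 64.0, 2.54 and 3.97 FPKM in the 3 JunBΔep mice (adjusted p = 0.722 from limma).

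Casp14 lies on chromosome 10 from 78174742 to 78181038 on mm9. It stood at 31.6, 18.7 and 46.6 FPKM in the 3 controls against 303, 73.0 and 37.4 FPKM in the 3 JunBΔep mice. JunBΔep replicates 0 and 1 were above every control, and replicate 2 was below control replicate 2. The log2 fold change was 1.62 (standard error 0.79), and 0.78 without JunBΔep replicate 0. Its highest control was 2.49 times its lowest, the widest span of the 8 genes. The highest control was again control replicate 2.

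The other 9 caspases had a median log2 fold change of 0.09. None was called by limma, with 0 at an unadjusted p below 0.05. Casp4, an inflammatory caspase, had 8.64 to 19.4 FPKM in the 3 controls against 33.4, 10.7 and 24.4 FPKM in the 3 JunBΔep mice.

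Filaggrin itself was not analysed here. Of 10 other genes of the filaggrin group and of its processing, none was called by limma, with 0 at an unadjusted p below 0.05. Their median log2 fold change was 0.47, and 0.15 without JunBΔep replicate 0. Flg2, a filaggrin-like protein, had 139, 87.0 and 91.8 FPKM in the 3 controls against 3.08, 68.2 and 101 FPKM in the 3 JunBΔep mice, so in JunBΔep replicates 0 and 1 Casp14 was above and Flg2 below every control. Padi3, a deiminase of filaggrin and of hair proteins, was at 58.5 FPKM in control replicate 2 and 110 FPKM in JunBΔep replicate 1, against 0.0675 to 4.87 FPKM in the other 4 mice. Padi1 was likewise at 17.3 and 18.6 FPKM in those 2 libraries, against 0.0735 to 4.48 FPKM. These are the libraries with high hair follicle markers.

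The sample names fall into 2 number series, with control replicates 0 and 1 and JunBΔep replicate 0 in the first and the other 3 mice in the second. Within the first, the log2 difference between JunBΔep and control was 6.13 for Prss27, 3.61 for Casp14, 1.92 for Spint1, 1.47 for Spink5, 0.81 for St14, 0.70 for Prss8, 0.19 for F2rl1 and -0.07 for Spint2. Within the second, it was 1.86 for Prss27, 0.16 for Casp14, 0.38 for Spint1, 0.43 for Spink5, 0.45 for St14, -0.21 for Prss8, 0.23 for F2rl1 and 0.05 for Spint2. Prss27 had the largest difference in both series, and Prss8 and Spint2 changed sign between them. Each series holds a single mouse of one genotype, so these differences have no test. With the number series as a block over all 6 mice, the log2 fold change was 3.99 (standard error 0.95) for Prss27 and 0.95 (standard error 0.31) for Spink5, the latter over 1.5 times its value without the block.

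Beyond the 8 genes, 9 lists of related genes were examined, with 97 tested genes. One was called by limma, where 1.38% of all tested genes were. At an unadjusted p below 0.05 there were 6, against 1287 of the 17021 tested genes. In the lists 6.19% had all 3 JunBΔep mice above all controls (5.62% of all tested genes) and 5.15% had them below (9.16% of all). The called gene was Wfdc1, a secreted protein with a WAP domain. It had 12.6, 12.1 and 10.8 FPKM in the 3 controls and fell by 1.99 on the log2 scale, to 2.56, 2.16 and 3.15 FPKM in the JunBΔep mice (standard error 0.21, adjusted p = 0.0187 from limma). Skeletal muscle markers were lower in the same 3 libraries (1546 to 3677 FPKM against 16195 to 21884 FPKM in the controls), and their part in this was not tested. The call was lost when any control or JunBΔep replicate 1 was left out, and with the number series as a block.

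Among 19 tested Kazal, Kunitz and WAP inhibitors, the median log2 fold change was 0.27, and 0.03 without JunBΔep replicate 0, with 2 at an unadjusted p below 0.05 and Wfdc1 the one called. Wfdc2 had 0.520, 0.170 and 1.97 FPKM in the 3 controls against 16.04, 4.67 and 32.2 FPKM in the 3 JunBΔep mice, without overlap (a log2 difference of 3.56 with a standard error of 0.79 and, in limma, an adjusted p of 0.158). Its highest value was in JunBΔep replicate 2. Spink12, a relative of Spink5, was at 154 FPKM in JunBΔep replicate 0 and at most 0.837 FPKM in the other 5 mice. Ambp was at 167 FPKM in control replicate 0 and at most 0.544 FPKM elsewhere, in the library that also held the liver markers.

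Of 15 other tested membrane-anchored serine proteases, none was called by limma, 1 had all 3 JunBΔep mice above and 2 had them below all controls, and the median log2 fold change was 0.24, and -0.04 without JunBΔep replicate 0. Hpn (hepsin), the 1 gene with an unadjusted p below 0.05, was lower, with 9.62, 2.82 and 8.70 FPKM in the 3 controls against 1.27, 0.961 and 2.45 FPKM in the 3 JunBΔep mice (a log2 difference of -1.78 with a standard error of 0.52 and, in limma, an adjusted p of 0.353). Prss22, a tryptase of epithelia, resembled Prss27 in having all 3 JunBΔep mice above all controls. It was at 2.99, 2.18 and 3.16 FPKM in the 3 controls against 56.6, 6.90 and 4.36 FPKM in the 3 JunBΔep mice. Its log2 difference was 1.97 (standard error 0.91, adjusted p of 0.708 in limma), and 0.88 without JunBΔep replicate 0. Tmprss11g and Tmprss11bnl, of the airway trypsin-like cluster, were at 127 and 21.2 FPKM in JunBΔep replicate 0 and at most 0.477 FPKM in the others.

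The 8 corneodesmosome genes and the 10 cathepsins, legumain and cystatins held no gene called by limma, with 1 and 0 at an unadjusted p below 0.05. Their medians were 0.27 and 0.08, and -0.13 and -0.14 without JunBΔep replicate 0. Dsg1a, a desmosomal cadherin whose breakdown frees the outer corneocytes, had 113, 101 and 85.0 FPKM in the 3 controls against 58.1, 69.0 and 62.2 FPKM in the 3 JunBΔep mice, all below the controls (a log2 difference of -0.65 with a standard error of 0.17 and, in limma, an adjusted p of 0.257). Ctsd, a lysosomal protease also active in the upper epidermis, had 430 to 470 FPKM in the 3 controls against 1330, 459 and 698 FPKM in the 3 JunBΔep mice (adjusted p = 0.722 from limma).

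**Figure D5:**
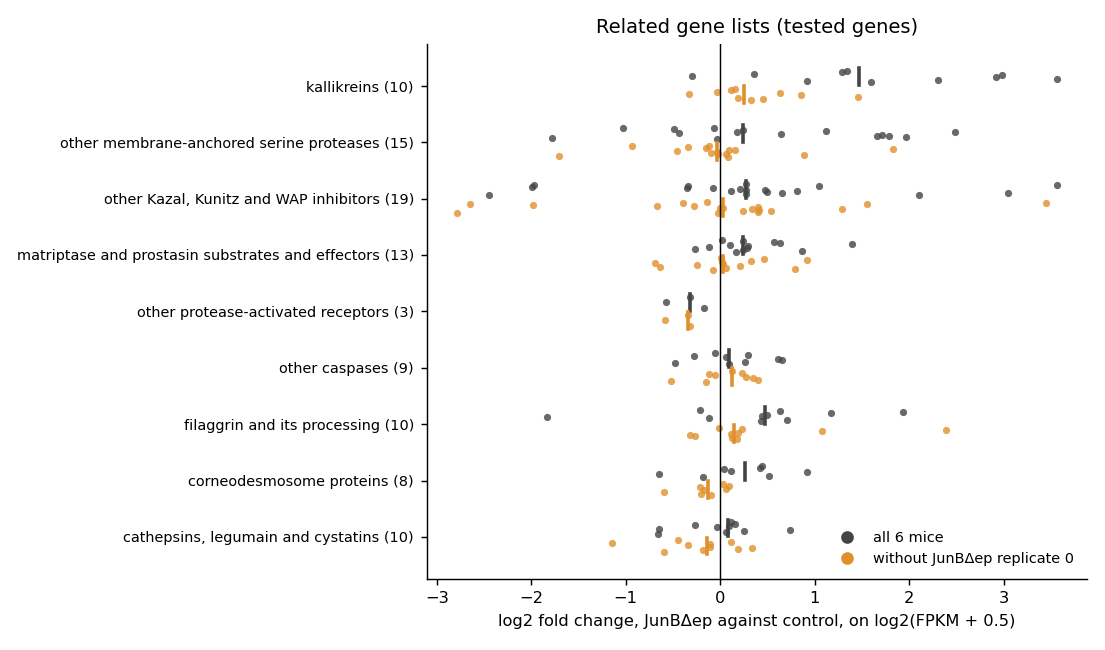
Log2 fold change, JunBΔep against control, on log2(FPKM + 0.5), of each tested gene in 9 lists of related genes, with all 6 mice (dark grey) and without JunBΔep replicate 0 (orange). The number in brackets is the number of tested genes and the bar is the list median. The kallikrein median goes from 1.47 to 0.26 when that mouse is left out.

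For each of the 8 genes, the genes closest in pattern were sought by Pearson's r of log2(FPKM + 0.5) over the 6 mice among 13742 genes whose mean was 1 FPKM or more. The 6 points share their libraries, and for Casp14 as many as 483 genes reached an r of at least 0.95, so the values are a description. Closest to Spint1 was Cdh3 (P-cadherin, an adhesion protein of basal and hair matrix keratinocytes) with r = 0.999. Cdh3 had 9.19, 10.5 and 20.5 FPKM in the 3 controls against 43.3, 48.6 and 13.9 FPKM in the 3 JunBΔep mice. Closest to Prss27 were Lce1g, a late cornified envelope gene, and Stfa1, a stefin that inhibits cysteine proteases. Lce1g had 5.37, 5.44 and 6.70 FPKM in the 3 controls against 80.3, 14.1 and 15.3 FPKM in the 3 JunBΔep mice. Stfa1 had 0.354 to 0.661 FPKM in the 3 controls against 750, 6.27 and 12.6 FPKM in the 3 JunBΔep mice. Both share with Prss27 a level above every control in JunBΔep replicates 1 and 2. Closest to St14, Prss8, Spink5 and Casp14 were Dnaja1, Wdr59, Adss and Slc39a14, with r of 0.995 to 0.999. For F2rl1 and Spint2, which varied least, the closest genes were Tmem194 and Rsrc2.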

How the data were processed

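RNA sequencing of poly(A) RNA from whole skin of 3 control and 3 JunBΔep mice was used, in stranded libraries. The authors checked reads with FastQC, aligned them to mm9 with TopHat2 2.0.10, Bowtie 1.0.0 and SAMtools 0.1.19, and deposited FPKM values per gene and mouse. Cufflinks is also listed in the submitters' processing notes, without a role. How strand was treated in quantification, and any further scaling of the libraries, are not stated in the paper or labels. The test of read counts in the study was not repeated, since counts were not analysed here.

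The deposited FPKM values were compared on log2(FPKM + 0.5) with limma 3.58.1 in R 4.3.3 (intensity trend, no block, two-sided, Benjamini-Hochberg, adjusted p below 0.05) over the 17021 genes that averaged 0.1 FPKM or more. A fold change on this scale understates that of low genes. Read depth is unknown, so no counting interval is given. Among genes below 0.15 FPKM, 14.2% to 17.4% shared 1 ratio to control replicate 0, counted as equal when the log2 ratios were the same at 3 decimals, and that ratio was 0.876 to 1.05. The procedure was tested on simulated data, but the outcome is not given here, so nothing is concluded from it. No shared litter or batch is stated for same-numbered mice, and p-values measure only the spread between these samples.

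The 8 genes and all lists were chosen with earlier results of these data known. The rule named the 8 genes, Junb, markers where a result turns on them, the called genes of each list and otherwise up to 3 with the largest absolute log2 fold change and a mean of 1 FPKM or more, and the 3 genes closest to each of the 8. Klk5, Klk7, Hpn, F2rl2 and F2rl3 stand outside it and were added after their values were seen. One gene that the rule names is not reported here. Positions are from GENCODE vM1 on mm9, and promoters from RefSeq on GRCm38.p6. Python 3.11.15 with pandas 2.3.3 and matplotlib 3.10.9 drew the figures.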

Additional observations from a re-analysis of the deposited data

How the results depend on the processing

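The counts of called genes and the log2 fold changes of the 8 genes were recomputed with a pseudocount of 0.1 or 1, without the filter or with it at 1 FPKM, after scaling by median ratios, to a common sum or by quantiles, without the trend in limma, with a replicate block or a block on the number series, after subtracting the basal keratinocyte markers (the fold changes only), without each mouse in turn and, chosen after seeing the data, without both control replicate 2 and JunBΔep replicate 1. Of these, list medians and the range of the ratios were recomputed only without JunBΔep replicate 0, and the closest genes and the shares of genes without overlap were not recomputed. The number of genes called in the whole table, 235, was 0 with a replicate block, 0 with a block on the number series and 0 without the pair of libraries, and it ranged from 0 to 254 with 1 mouse left out (0 without any single control or JunBΔep replicate 1, and 135 without JunBΔep replicate 0). With the replicate block 972 genes had an unadjusted p below 0.05. The 243 genes higher at an unadjusted p below 0.05 became 62 without control replicate 0 and 1282 without JunBΔep replicate 2. Of the 8 genes, 0 were called, and 0 to 1 with 1 mouse left out (Prss27, without JunBΔep replicate 0). Of the related lists 1 gene was called, 0 with the replicate block, 0 with the block on the number series, 0 without the pair of libraries and 0 to 1 with 1 mouse left out. The cause was not tested. The replicate numbers are not shown to pair the mice, since the deviations of same-numbered libraries correlated at 0.12, -0.23 and -0.43.

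St14, Prss8, Prss27, Spint1, F2rl1 and Casp14 kept their sign under all 18 alternatives, Spink5 under 17 and Spint2 under 15. Prss27 ranged from 1.96 to 4.15, Casp14 from 0.78 to 2.28 and Spink5 from -0.02 to 0.97, each lowest without JunBΔep replicate 0. With unknown depth and 3 mice a group, small differences such as those of Spint2 and F2rl1 could not be resolved.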
